A study of Mus musculus with 8 samples.

Results

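The fibrillar collagen genes were examined in myofibroblastic hepatic stellate cells of the mouse (pMF-HSCs, primary cultures) in which O-GlcNAc transferase (OGT) had been inhibited. The members were chosen by name. They are the 10 genes Col1a1, Col1a2, Col3a1, Col5a1, Col5a2, Col5a3, Col11a1, Col2a1, Col24a1 and Col27a1, and all 10 were found among the 40840 genes of the deposited tables and among the 19963 genes tested. Hepatic stellate cells, which store vitamin A beside the liver sinusoids, were sorted by their retinol autofluorescence from livers of male wild-type C57BL/6J mice aged 15 to 18 weeks, and became myofibroblasts on their own during 7 days of culture in serum-containing medium. Control cultures then received the vehicle DMSO and OGTi cultures received OSMI-1, a small molecule that inhibits OGT, at 50 µM, both for 24 h. Each group held 4 libraries, and control and treated libraries of one replicate number formed a pair, as the study's methods state. All cells in both groups had been activated on culture plastic, after a sort for stellate cells, so the comparison concerns a treatment of cells that were already myofibroblastic. Whether a pair came from 1 mouse or from a pool was not given in the sources used here.

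Fibrillar collagens are the rope-like collagens of connective tissue. Their chains wind into a triple helix in the endoplasmic reticulum, are secreted as procollagens, lose their end domains outside the cell and assemble into fibrils that are then crosslinked. Types I and III make the bulk of the scar in a fibrotic liver, and activated stellate cells are known as their main source there. Type V, and in cartilage type XI, lies inside the fibrils and sets when they form and how thick they become. OGT attaches the sugar O-GlcNAc to proteins of the nucleus and cytoplasm, transcription factors among them.

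Libraries held 30068876 to 37372420 expected counts (reads assigned to genes by RSEM), and 19035 to 20293 genes were detected in 7 of them, against 23746 in OGTi replicate 4. Stellate cell markers were present in all libraries, and the summed level of the 8 listed genes was 1813 to 2962 TPM in control and 1483 to 2372 TPM in OGTi (a level that takes transcript length and depth into account). Of these markers Lrat, Pdgfrb and Hgf fell, with log2 fold changes of -1.78, -1.68 and -2.13 (edgeR adjusted p 0.00232, 0.00154 and 0.00156). The level of Acta2, 1310 to 2587 TPM, made up most of that sum, and Acta2, Reln, Des, Lhx2 and Rgs5 did not pass the test (log2 fold changes 0.05, 0.04, -0.19, -0.33 and -0.36). Most markers of other liver cells were low. The 6 endothelial markers summed to at most 1.43 TPM and the 6 hepatocyte markers to at most 1.67 TPM, with Hnf4a at 0 in all libraries. Among these scarce genes the endothelial Lyve1 fell (-3.17, edgeR adjusted p 0.0340) and the hepatocyte Cyp2e1 rose (3.98, adjusted p 0.00591). The macrophage markers Adgre1, Clec4f and Ptprc and the cholangiocyte marker Epcam were each under 1 TPM in every library, while Csf1r was at 2.22 to 6.66 TPM and Krt7 at 0 to 5.05 TPM. The sum of 6 macrophage markers, 49.8 to 168.8 TPM in control and 87.5 to 225.6 TPM in OGTi, was carried by Lyz2 and Cd68, and that of 4 cholangiocyte markers, 305.3 to 652.4 TPM and 125.3 to 550.8 TPM, by Spp1 and Krt19. Cd68, which encodes a lysosomal protein, rose, with a range of 11.02 to 32.34 TPM in control and 25.35 to 69.4 TPM in OGTi (edgeR adjusted p 0.00154), and Krt19, which encodes a keratin, fell (log2 fold change -0.66, adjusted p 0.0462). The 6 portal fibroblast and mesothelial markers summed to 2.46 to 3.72 TPM and 1.46 to 2.91 TPM. The part of any of these in the collagen values was not tested. In bulk RNA, fewer cells making a transcript and less transcript per cell cannot be told apart.

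Promoter sequences are shown because 3 members whose levels were lower in OGTi in every pair, and which stand for one chain of type I, the chain of type III and a chain of type XI, start from different sequences. RefSeq promoters (assembly GRCm38.p6, 250 bases before to 50 after the start) were found for 7 of the 10 members, namely Col1a2, Col3a1, Col5a1, Col5a3, Col11a1, Col24a1 and Col27a1, and not for Col1a1, Col5a2 and Col2a1. The 250 bases before the start are printed 5′ to 3′ on the plus strand, for Col1a2 at chr6:4505368-4505617, for Col3a1 at chr1:45311288-45311537 and for Col11a1 at chr3:114030290-114030539 of GRCm38.p6, a build other than that of the count tables. Capitals mark exact matches, on either strand, to TATAA (the TATA box core), CCAAT (the core bound by NF-Y), GGGCGG (the GC box bound by Sp1) and GGAATG (the core bound by TEAD factors).
Col1a2: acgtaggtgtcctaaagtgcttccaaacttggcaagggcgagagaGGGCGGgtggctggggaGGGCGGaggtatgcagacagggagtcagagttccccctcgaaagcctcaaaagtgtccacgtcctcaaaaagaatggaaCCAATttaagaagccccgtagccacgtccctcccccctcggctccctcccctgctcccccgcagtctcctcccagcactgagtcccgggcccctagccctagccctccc
Col3a1: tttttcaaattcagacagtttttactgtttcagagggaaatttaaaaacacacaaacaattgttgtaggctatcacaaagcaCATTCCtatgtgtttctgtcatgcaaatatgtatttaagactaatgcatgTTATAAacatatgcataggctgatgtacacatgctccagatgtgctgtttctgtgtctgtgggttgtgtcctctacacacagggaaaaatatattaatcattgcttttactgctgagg
Col11a1: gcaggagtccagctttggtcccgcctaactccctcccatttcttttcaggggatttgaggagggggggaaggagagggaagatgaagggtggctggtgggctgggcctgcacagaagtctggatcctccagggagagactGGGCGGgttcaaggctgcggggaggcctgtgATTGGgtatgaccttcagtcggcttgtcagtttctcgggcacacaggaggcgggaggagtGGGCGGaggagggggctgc
The Col1a2 window held GGGCGG in 2 places and CCAAT in 1, and the Col11a1 window likewise held GGGCGG in 2 places and CCAAT, on the other strand, in 1. The Col3a1 window held neither of them. It held TATAA and its reverse complement TTATA as overlapping matches, and GGAATG on the other strand. Over the whole windows of the 7 members, GGGCGG occurred in 5 (35.7% of 32851 promoters in the table), CCAAT in 3 (37.4%), TATAA in 1 (24.9%), GGAATG in 1 (14.7%) and TGANTCA, the site letters of AP-1, in 0 (7.81%). A match is a run of letters and not a measured binding site.

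Levels of the members fell into an abundant and a scarce set (TPM). In control cultures Col1a1 averaged 741.5 ± 268.6 TPM, Col5a2 296.4 ± 112.9, Col3a1 200.4 ± 132.7, Col1a2 93.4 ± 66.5 and Col5a1 50.5 ± 14.4 (SD, n = 4). Next came Col11a1 at 1.37 ± 0.77 TPM, and the other 4 were below 0.2 TPM on average. Within the abundant set the control ranges of neighbours in this order overlapped. In OGTi the order of these 6 genes was the same.

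The cultures thus held transcripts of types I, III and V, with a trace of type XI. The paired edgeR fit gave 8 of 10 members a log2 fold change below 0, and each of these 8 was lower in OGTi in all 4 pairs, against 21.5% of all genes tested. Some pair differences were near 0, at -0.02 for Col1a2 in pair 2, -0.04 for Col5a1 in pair 1 and -0.097 for Col27a1 in pair 4. Scaling alone moved the middle estimate of all genes from 0.01 under TMM to 0.13 under upper-quartile scaling and -0.19 under library totals. Whether these pairs stay lower under each scaling was not tested, although they were lower in TPM as well. The members' median log2 fold change was -0.68, beside 0.01 over all genes tested and -0.08 over the 3993 genes of the longest of 5 length classes, to which all 10 members belong. Under library totals alone all 10 estimates were below 0, and the medians of members and of all genes shifted together. The members' median minus that of all genes was -0.69 under TMM and, since a scaling moves all genes alike, nearly the same under the other scalings. It was -0.45 without replicate 1, -0.51 with the trend on gene length removed, -0.82 with no low-count filter and -0.89 without replicate 3.

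At an adjusted p of at most 0.05, 1 of 10 members was called, and it was lower. Over all genes 18.4% were called, 10.2% lower and 8.13% higher, so that 1 lower call among 10 members was close to that background in this fit. The count depended on the processing. Lower calls among members numbered 5 under library totals (14.6% of all genes), 4 with no low-count filter (9.28%) and 4 with limma on log2(TPM + 1) (17.3%). They numbered 2 with DESeq2 (14.4%) and 2 without replicate 1 (9.03%). They numbered 0 with filterByExpr (13.5%), with no replicate block (7.67%) and without replicate 2, 3 or 4 (8.53%, 5.52% and 5.67%). The member called in the paired fit of all libraries was Col11a1. At an unadjusted edgeR p under 0.05, 7 members were lower, whereas 17.5% of all genes were. For no member were the control and OGTi libraries fully separated, which was the case, in the lower direction, for 12.0% of all genes tested.

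**Figure D1:**
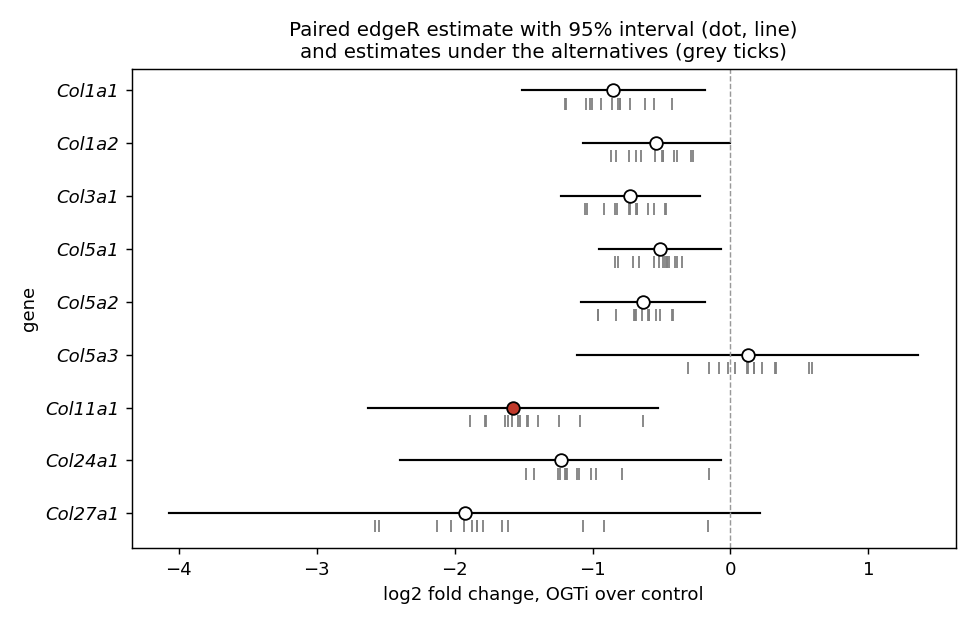
Log2 fold change (OGTi over control) of 9 members from the paired edgeR model, as a dot with its 95% interval, filled red where called. Grey ticks are the estimates under the alternatives. Estimates of Col1a1, Col1a2, Col3a1, Col5a1, Col5a2, Col11a1, Col24a1 and Col27a1 lay below 0 throughout, those of Col5a3 on both sides. Col2a1, with 17 counts in all, is left out.

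Col1a1 encodes the major chain of type I collagen, the main collagen of scar (chr11:94827050-94843868, plus strand, GRCm39, 51 exons of the reference transcript). In control replicates 1 to 4 it measured 375.9, 713.8, 889.7 and 986.7 TPM. In OGTi replicates 1 to 4 it measured 56.2, 464.3, 528.8 and 618.4 TPM. Every treated culture was below its own control, yet the groups overlapped, because control replicate 1 was lower than 3 of the treated libraries. On scaled counts (counts adjusted for library size by TMM) the means were 86442 ± 30593 and 58852 ± 34950 (SD, n = 4). The log2 fold change was -0.85 ± 0.30 (SE, 95% interval -1.51 to -0.19) with an edgeR adjusted p of 0.0761. Pair 1 differed by -2.21 on the log2 scale and the other pairs by -0.52, -0.38 and -0.38, and without replicate 1 the estimate was -0.42 (adjusted p 0.0699).

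Col1a2 encodes the other chain of type I (chr6:4504814-4541555, plus strand, 52 exons). Control libraries 1 to 4 held 28.5, 44.1, 143.5 and 157.4 TPM. OGTi libraries held 8.02, 40.4, 69.4 and 114.1 TPM. The spread between cultures, 5.53-fold within control, was wider than the difference within any pair. The log2 fold change was -0.54 ± 0.24 (SE, 95% interval -1.07 to -0.01) with an edgeR adjusted p of 0.153. The pairs differed by -1.29, -0.02, -0.68 and -0.17, and without replicate 1 the estimate was -0.29.

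Col3a1 encodes the only chain of type III, which forms fine fibrils with type I (chr1:45350698-45395840, plus strand, 51 exons). It was at 86.0, 113.7, 224.0 and 378.2 TPM in control replicates 1 to 4. It was at 21.0, 84.7, 106.9 and 233.8 TPM in OGTi replicates 1 to 4. Again each pair was lower while the groups overlapped. The log2 fold change was -0.72 ± 0.23 (SE, 95% interval -1.23 to -0.22), with an edgeR adjusted p of 0.0517. It ranged from -1.05 to -0.47 over the alternatives, and the adjusted p from 0.0118 to 0.581. Pair 1 differed by -1.50 and pairs 2 to 4 by -0.32, -0.69 and -0.40.

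**Figure D2:**
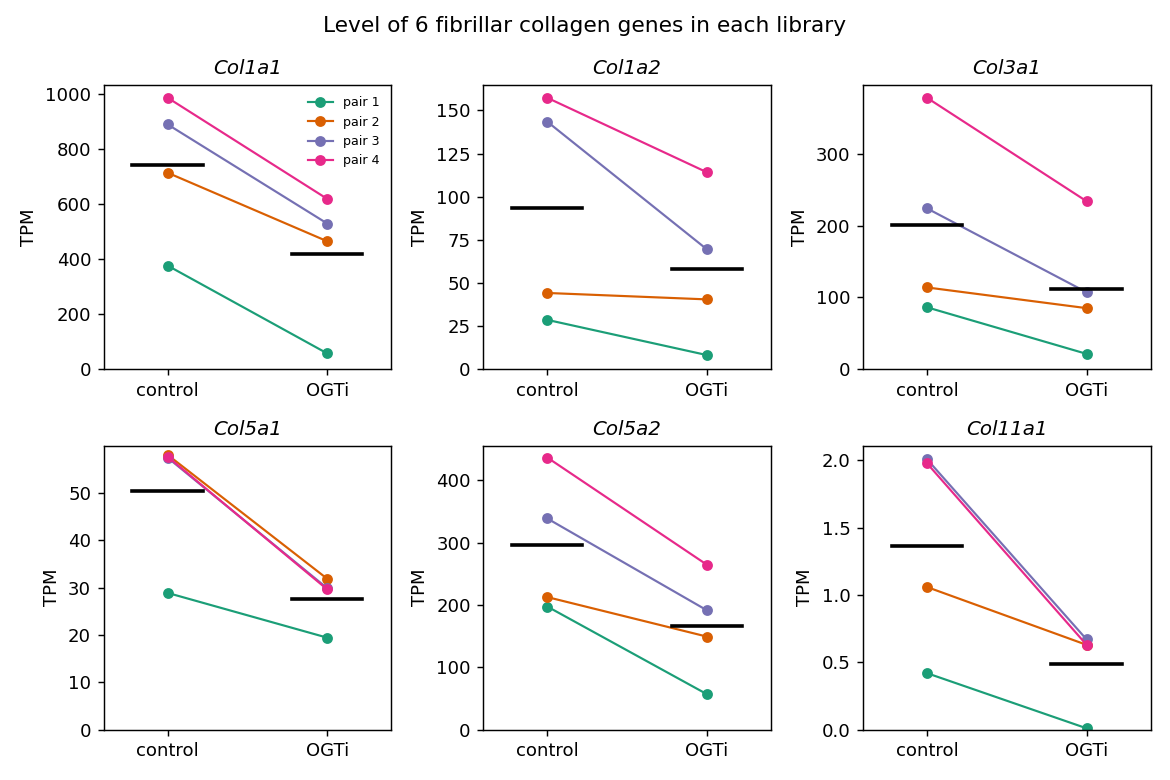
TPM of 6 members in each library, with control on the left and OGTi on the right of each panel. Points of one pair share a colour and a line, and black bars are group means (n = 4). All lines go down. For Col1a1, Col1a2, Col3a1 and Col5a2 the pairs keep their order from control to OGTi, and for Col5a1 pairs 2 to 4 nearly coincide.

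Among the chains of type V, which lies within type I fibrils, Col5a1 and Col5a2 were expressed and Col5a3 was scarce. Col5a1, whose chain is needed to start fibrils (chr2:27776397-27929526, plus strand, 66 exons), measured 28.9, 58.0, 57.4 and 57.6 TPM in control. It measured 19.4, 31.9, 29.9 and 29.6 TPM in OGTi. Control replicate 1 stood below the other controls and below 3 of the treated libraries, and apart from it every control exceeded every treated library. The log2 fold change was -0.51 ± 0.20 (SE, 95% interval -0.96 to -0.07) with an edgeR adjusted p of 0.108. By scaled counts pair 1 differed by -0.04 and the other pairs by -0.76, -0.57 and -0.67. Without replicate 1 the estimate was -0.66 and passed the threshold (adjusted p 0.0281).

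Col5a2 encodes the partner chain of Col5a1 and neighbours Col3a1 on chromosome 1 at a distance of 16.7 kb (chr1:45412554-45542442, minus strand, 54 exons). Its control libraries held 197.5, 212.7, 338.8 and 436.6 TPM. Its OGTi libraries held 56.9, 149.3, 191.5 and 264.5 TPM. Each pair was lower, and the groups overlapped. The log2 fold change was -0.63 ± 0.20 (SE, 95% interval -1.08 to -0.19) with an edgeR adjusted p of 0.0542. Pair 1 differed by -1.26, and pairs 2, 3 and 4 by the similar values of -0.41, -0.45 and -0.43.

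Col5a3 encodes a further type V chain of restricted expression (chr9:20681337-20726418, minus strand, 67 exons). Its counts were 6, 24, 38 and 31 in control and 3, 8, 52 and 58 in OGTi. The pairs disagreed in direction, since the first and second were lower and the other two higher. The log2 fold change was 0.12 ± 0.56 (SE, 95% interval -1.11 to 1.36, edgeR adjusted p 0.911), and it was -0.08 with library totals alone. That interval is wide on both sides of 0, so no difference was detectable at this depth.

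Col11a1 encodes a chain of type XI, a cartilage collagen that shares its fibril role with type V (chr3:113824134-114014367, plus strand, 67 exons). Control replicates 1 to 4 held 59, 163, 282 and 271 counts, or 0.42, 1.06, 2.01 and 1.98 TPM. OGTi replicates 1 to 4 held 2, 80, 103 and 86 counts, or 0.01, 0.63, 0.67 and 0.63 TPM. Control replicate 1 was lower than 3 of the treated libraries, and otherwise the controls were the higher. Col11a1 fell in 4 of 4 pairs. Its log2 fold change was -1.58 ± 0.47 (SE, 95% interval -2.63 to -0.53) with an edgeR adjusted p of 0.0428. In pair 1 the 2 counts of the treated library gave a ratio of 0.0378 to control, with an exact 95% interval of 0.00448 to 0.143 that covers counting error only. Without replicate 1 the estimate was -1.09 and kept its call (adjusted p 0.0387). The call was lost without replicate 2, 3 or 4, where the estimates were -1.89, -1.77 and -1.63 (adjusted p 0.0539, 0.0841 and 0.127), with edgeR's filterByExpr in place of the count minimum (-1.54, adjusted p 0.0614), and without the pairing (-1.24, adjusted p 0.308). Over all alternatives the adjusted p ranged from 0.000802 to 0.308.

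**Figure D3:**
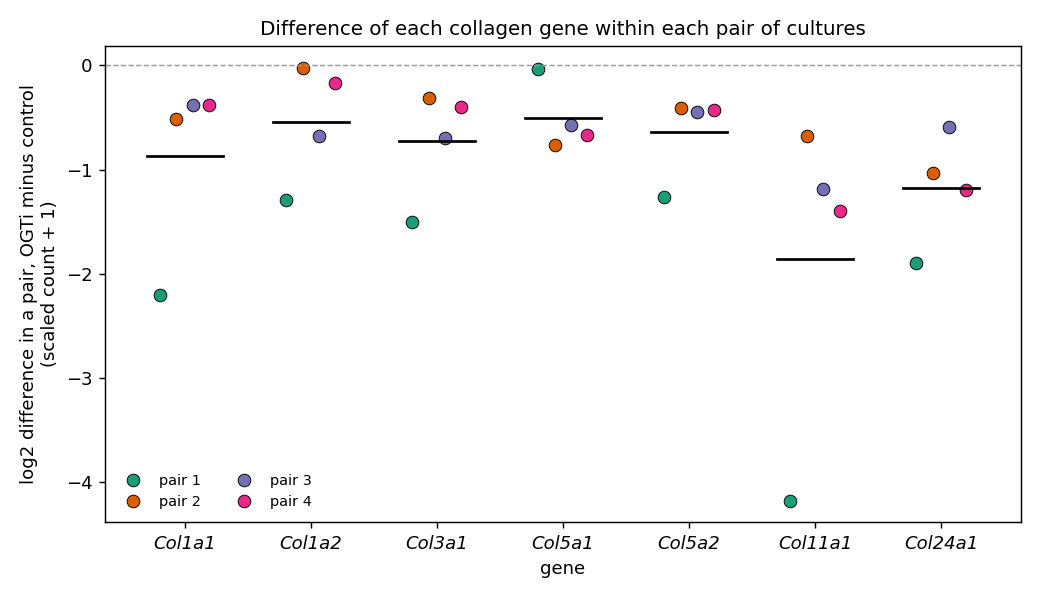
Log2 difference between OGTi and control in scaled counts (1 added) within each of the 4 pairs, for 7 members. Coloured points are pairs and bars their mean. Pair 1 lies lowest for every gene shown except Col5a1, where it is the highest at -0.04. Its Col11a1 point rests on 2 counts in the treated library.

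The remaining members were near the limit of detection. Col24a1, a fibrillar collagen of developing bone and eye (chr3:144998233-145257766, plus strand), had 32, 22, 42 and 15 counts in control and 7, 8, 23 and 5 in OGTi. Its log2 fold change was -1.23 ± 0.52 (SE, 95% interval -2.40 to -0.07, edgeR adjusted p 0.136). All pairs were lower, and only OGTi replicate 3 exceeded a control library. Col27a1, a fibrillar collagen of cartilage (chr4:63132241-63253228, plus strand), had 19, 38, 25 and 9 counts in control and 11, 0, 3 and 7 in OGTi, where a count of 0 allows up to 3 counts, or 0.0283 TPM. Its log2 fold change was -1.93 ± 0.96 (SE, 95% interval -4.07 to 0.22, edgeR adjusted p 0.201), and it was -1.07 without replicate 2, -2.55 without replicate 1 and -2.58 without replicate 4. Both genes were thus lower in 4 of 4 pairs without passing the threshold. Col2a1, the main collagen of cartilage (chr15:97873483-97902689, minus strand), had 0, 4, 0 and 4 counts in control and 0, 0, 7 and 2 in OGTi. The 4 libraries at 0 allow at most 0.0199 to 0.0292 TPM. No difference was detectable for Col2a1 at this depth, with a log2 fold change of 0.04 ± 3.17 (SE).

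The range from the lowest to the highest control culture was wider than the fitted treatment difference for Col1a1, Col1a2, Col3a1 and Col5a2. For these genes the cultures fell in the same order in control and in OGTi, with pair 1 lowest and pair 4 highest in both arms. Within control the highest library exceeded the lowest 2.62-fold for Col1a1, 5.53-fold for Col1a2, 4.40-fold for Col3a1 and 2.21-fold for Col5a2 in TPM. The fitted treatment differences of these genes corresponded to ratios of 0.555, 0.689, 0.605 and 0.644 of the control level. Their control SD on the log2 scale (scaled counts, 1 added) was 0.61, 1.21, 0.95 and 0.53. Beside fitted log2 fold changes of -0.85, -0.54, -0.72 and -0.63, that SD was the larger for Col1a2 and Col3a1 only. Across the 8 libraries, which share treatment and pair, log2(TPM + 1) of Col3a1 had Pearson correlations of 0.98 with Col5a2 and 0.97 with Col1a2. Col5a1 was least like the others, with correlations of 0.70 to 0.81.

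The genes with the pattern most like a member's were sought among 11695 genes with a mean of at least 1 TPM, by the same correlation over 8 libraries. For Col1a1 they included Ehbp1l1, Ppp1r3b, Vps52 and Leng8 (0.98 to 0.99), and the best placed other member, Col5a2, ranked 132. For Col3a1 they were Flna, which encodes an actin crosslinker, Gm15418, Col6a1, which encodes a chain of microfibrillar collagen VI, Col5a2, and Mmp2, a gelatinase (0.98 to 0.99). Col1a2 ranked 9 for Col3a1, and Col1a1 ranked 108. For Col5a1 they were Btd, Elmod3, Zfp39, Tvp23a and Camta2 (0.95 to 0.97), with Col1a1 the best placed member at rank 911. These values describe 8 libraries only.

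The share of all transcripts held by the 10 members gave a single value per library. It was 0.0718%, 0.114%, 0.166% and 0.202% of total TPM in control replicates 1 to 4. It was 0.0162%, 0.0771%, 0.0928% and 0.126% in OGTi replicates 1 to 4. The share was lower in 4 of 4 pairs, by a mean of -1.06 ± 0.74 on the log2 scale (SD, n = 4 pairs). In a two-sided exact permutation test over pairs, 2 of the 16 assignments of signs gave a mean at least as large, the fewest that 4 pairs allow, so that the test could not reach 0.05. Without replicate 1 the mean was -0.69.

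Balance between chains was then compared, since type I collagen holds more Col1a1 than Col1a2 chains and type V is built from Col5a1 with Col5a2 or Col5a3. The TPM ratio of Col1a1 to Col1a2 was 13.2, 16.2, 6.20 and 6.27 in control and 7.01, 11.5, 7.62 and 5.42 in OGTi. It was lower in 3 of 4 pairs, with means of 10.5 ± 5.0 and 7.89 ± 2.58 (SD, n = 4). The 4 ratios examined were Col1a1 to Col1a2, Col3a1 to Col1a1, Col5a1 to Col5a2 and Col5a3 to Col5a1. Two-sided exact permutation tests over the pairs gave p = 0.375, 0.75, 1 and 0.5, each 1 after Benjamini-Hochberg adjustment over the 4 ratios, and 4 pairs could not have given a p under 0.05. Differences in the ratios were smaller than or close to the spread between pairs, at mean log2 values of -0.33 ± 0.51, 0.14 ± 0.43, 0.13 ± 0.74 and 0.48 ± 1.26 (SD, n = 4 pairs). With one replicate left out, the first ranged from -0.14 (without replicate 1) to -0.54 (without replicate 3), and the last from 0.041 (without replicate 4) to 0.89 (without replicate 1). For Col5a1 to Col5a2, pair 1 was higher in OGTi by 1.22 and the other pairs were lower by -0.35, -0.12 and -0.24. A shift in chain balance was therefore not detectable with 4 pairs.

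**Figure D4:**
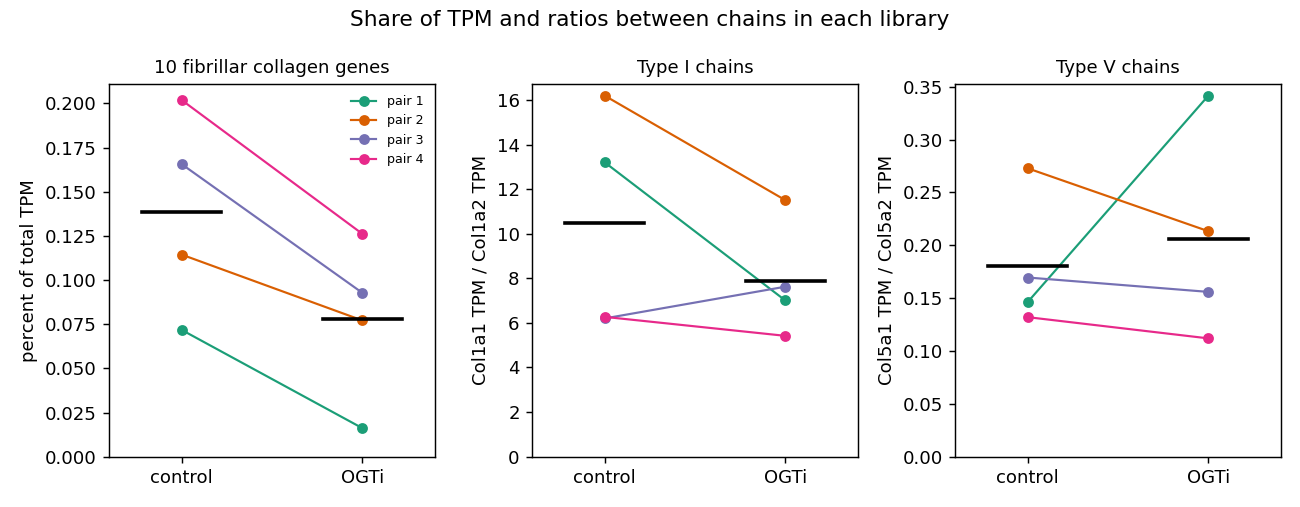
Percent of total TPM held by the 10 members (left), and TPM ratios of Col1a1 to Col1a2 (middle) and Col5a1 to Col5a2 (right), in each library. Points of one pair share a colour and a line, and black bars are group means (n = 4). The share goes down in all pairs, while in each ratio 1 pair goes up and 3 go down.

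Pair 1 and transcript length moved with these values. All 10 members belong to the longest class (mean length of at least 5047 bases). Relative to the other OGTi libraries, genes of that class lay at a median of -0.49 on the log2 scale in OGTi replicate 1 and at 0.42 in OGTi replicate 4, whereas the shortest class lay at 0.53 and -0.30. The median difference over the members was -1.28, -0.72, -0.58 and -0.42 in pairs 1 to 4, beside -0.42, 0.07, -0.22 and 0.15 for the longest class. With the trend on length removed from each library, the members' median was -0.44 and Col11a1 was called (adjusted p 0.0487). The part of transcript length in the collagen values was not tested further.

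Genes that build, export, process, crosslink, bind or cleave fibrillar collagen, or control its transcription, were examined as 8 lists of 83 genes in all. Of these 13 fell and 4 rose at an edgeR adjusted p of at most 0.05, and 66 did not pass, while 10.2% of all genes tested fell and 8.13% rose. The median log2 fold change was -0.31, beside 0.01 for all genes tested.

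In the folding and hydroxylation list, 2 of 18 genes fell, Fkbp10 and Fkbp14, which encode prolyl isomerases of the endoplasmic reticulum (log2 fold changes -1.15 and -1.27). That count was close to the 10.2% of all genes that fell, and the list's median was 0.06. The abundant chaperone gene Serpinh1, which encodes the collagen chaperone HSP47, had 2242 ± 609 TPM in control and 1626 ± 714 TPM in OGTi (SD, n = 4, adjusted p 0.630). In the export list Sec24d, a cargo adaptor of the COPII coat that carries procollagen, fell from 83.3 ± 10.9 to 27.7 ± 13.6 TPM (log2 fold change -1.47 ± 0.31, adjusted p 0.00899). Mia2, which encodes an export factor of endoplasmic reticulum exit sites, rose from 5.15 ± 1.21 to 8.03 ± 1.48 TPM (0.97 ± 0.24, adjusted p 0.0194). Sec24d was lower and Mia2 higher in 4 of 4 pairs.

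Among 8 genes of propeptide removal 2 fell, against 10.2% of all genes tested, and both encode procollagen N-proteinases. Adamts14 fell from 16.1 ± 6.0 to 4.20 ± 1.86 TPM (log2 fold change -1.66 ± 0.25, adjusted p 0.00194) and Adamts3 from 0.658 ± 0.151 to 0.193 ± 0.099 TPM (-1.61 ± 0.41, adjusted p 0.0225). Bmp1, which encodes a C-proteinase, was at 19.1 ± 9.8 and 14.7 ± 3.8 TPM, with a log2 fold change of 0.05 in the paired fit (adjusted p 0.930). None of the 5 crosslinking genes, the 7 receptor and uptake genes or the 5 cleavage genes passed, among them Lox, at 150.0 ± 97.4 and 111.8 ± 66.2 TPM, and Mmp2, at 54.3 ± 29.3 and 32.2 ± 17.5 TPM. Over all genes tested 18.4% were called in either direction, so that 0 calls in lists of 5 or 7 genes cannot set these lists apart.

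Of 13 fibril partners 2 fell, against 10.2% of all genes tested. Col16a1, a collagen that binds fibril surfaces, went from 3.38 ± 2.34 to 0.855 ± 0.637 TPM (log2 fold change -1.75 ± 0.35, adjusted p 0.00737), and Col12a1, of the same class, had a log2 fold change of -0.83 (adjusted p 0.0288). The abundant partners did not pass. Dcn, which encodes the fibril-binding proteoglycan decorin, was at 5743 ± 2104 and 5518 ± 2174 TPM (log2 fold change 0.25, adjusted p 0.311). Sparc, which encodes a collagen-binding matrix protein, was at 5322 ± 1043 and 5200 ± 772 TPM (log2 fold change 0.30, adjusted p 0.283). For both genes the estimate of the paired fit was above 0 although the mean TPM was lower in OGTi.

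Of 21 genes in the list of transcription and mRNA control, 6 fell and 3 rose, against 10.2% and 8.13% of all genes tested. Tead2, a DNA-binding partner of YAP and TAZ, had the lowest estimate of the called genes in these lists, -2.15 ± 0.37 (adjusted p 0.00383), while Tead4 and Wwtr1, which encodes TAZ, rose by 1.81 ± 0.41 and 1.41 ± 0.28 (adjusted p 0.0125 and 0.00737). Sox9, the cartilage factor known to act on Col2a1 and Col11a1, rose from 1.30 ± 0.65 to 10.9 ± 8.9 TPM (3.03 ± 0.63, adjusted p 0.00858), higher in 4 of 4 pairs. The others that fell were Tgfbr2 (-1.43), which encodes a TGF-β receptor, Smad3 (-0.85), which encodes its signal transducer, Creb3l1 (-1.10), which encodes a membrane-bound factor that acts on type I collagen genes, Nfyb (-0.84) and Tead1 (-0.82). Larp6, which encodes a protein that binds type I collagen mRNA, was at 0.638 ± 0.516 and 0.185 ± 0.150 TPM (adjusted p 0.0931).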

How the data were processed

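RNA was measured by sequencing in 8 cultures. Per the study's methods and the submitters' processing notes, the authors made stranded, oligo-dT-selected, paired-end libraries, aligned reads with Bowtie2 2.3.5.1 to the mouse genome (GRCm39, mm39) and counted them with RSEM 1.3.1, 1 table per library. The deposited expected counts are RSEM estimates and need not be whole, and 0.251% to 0.978% of detected genes had a fractional value. The deposited TPM are scaled by transcript length and depth. Per the study's methods, Bowtie2 could report many alignments per read, and RSEM can divide such reads among genes by expectation maximization. Given the few fractional values, whether this was so here could not be settled. A comparison table of the authors, with fold changes and p-values, was not used, nor were the 16 columns of per-sample values in it.

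Expected counts were rounded and analysed with edgeR 4.0.16 (R 4.3.3). Genes with a total of at least 10 counts were tested with TMM scaling and a quasi-likelihood model with replicate as a block, and p-values were adjusted by Benjamini-Hochberg over all 19963 genes. A gene was called at an adjusted p of at most 0.05. The SE is the log2 fold change divided by the root of F, and intervals have 95% coverage. The biological coefficient of variation was 0.342. Pairing comes from the study's methods, and deviations from group means correlated at 0.160, 0.224, 0.105 and 0.318 within pairs and at -0.312 to 0.208 otherwise, across genes, which are not independent replicates. The fit was tested on simulated data. DESeq2 1.42.0 and limma 3.58.1 were alternatives, limma on log2(TPM + 1) or log2(TPM + 0.1). Length trends were removed with a lowess span of 0.3. Pair differences used scaled counts with 1 added.

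The members and lists were chosen with earlier results of these data known. Named genes were all members, the 5 called pathway genes of largest change in each direction (4 rose), and the 5 genes most like Col1a1, Col3a1 and Col5a1, of which 1 is not reported here; other genes named were chosen after their values were seen. Positions are from GENCODE vM39 on GRCm39. Separate cultures were the replicates. Proteins were not analysed here.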

Additional observations from a re-analysis of the deposited data

Results flagged for a closer look

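In 30 sets of values, 1 per group for each member, for the share of TPM and for each ratio, a replicate standing well away from the other 3 was sought. There were 2, where chance would give 1.5. Scaled counts of Col5a1 were 4911 in control replicate 1, while the other controls had 9445 to 9897. Scaled counts of Col24a1 were 25.4 in replicate 3 of the OGTi group, while its other replicates had 5.74 to 8.93. Control replicate 1 belongs to the pair whose Col5a1 difference was near 0, and the cause was not tested.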

How the results depend on the processing

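Counts limit the values of Col2a1, Col5a3, Col24a1, Col27a1 and of Col11a1 in pair 1. The number of members called, 1 in the paired fit (10.2% of all genes called lower), was 5 with library totals alone (14.6%; Col1a1, Col3a1, Col5a1, Col5a2, Col11a1), 4 with limma on TPM with 1 or 0.1 added (17.3% and 17.4%; Col3a1, Col5a1, Col5a2, Col11a1), 4 with no low-count filter (9.28%; Col1a1, Col3a1, Col5a2, Col11a1), 2 with DESeq2 (14.4%; Col3a1, Col11a1), 0 with filterByExpr (13.5%), where Col11a1 had a log2 fold change of -1.54 (adjusted p 0.0614), and 0 with no replicate block (7.67%). With one replicate left out, and so fewer samples in each fit, it was 2 without replicate 1 (9.03%; Col5a1, Col11a1). It was 0 without replicate 2, 3 or 4 (8.53%, 5.52% and 5.67%). The number of all genes called, 3666, was 1905 to 3124 with one replicate left out and 2991 with no replicate block. The members' median, -0.68, was -0.45 to -0.88 with one replicate left out and -0.55 with no replicate block. The pairing changed the call of Col11a1 and of no other member. The share of higher genes among those called was 44.3% with TMM, 54.2% with upper-quartile scaling, 30.1% with library totals and 25.7% or 26.2% with limma on TPM.

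Of 139 values of single members, 111 kept direction and side of the threshold, 15 came to pass it, 5 no longer passed and 8 changed sign, and the cause was not tested. Those that changed sign were never called. Col5a3 went from 0.12 to -0.081 (library totals), -0.019 (limma, 0.1 added), -0.16 (without replicate 3) and -0.31 (without replicate 4), in a range of -0.31 to 0.59 with one replicate left out. Col2a1 went from 0.04 to -0.14 (library totals), -0.14 (DESeq2), -0.011 (no filter) and -1.74 (without replicate 3), in a range of -1.74 to 1.51 with one replicate left out, and was not tested with filterByExpr. The mean log2 ratio of Col3a1 to Col1a1 went from 0.14 to -0.046 without replicate 1, in a range of -0.046 to 0.29 with one replicate left out, and that of Col5a1 to Col5a2 from 0.13 to -0.24 without replicate 1, in a range of -0.24 to 0.29.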
